A study of Mus musculus with 2 samples.

Results

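Collagens are secreted proteins wound into a triple helix of repeated glycine-led triplets, and each collagen type is built from 1 or several gene products called alpha chains. The 36 genes described here are the collagen genes of the embryonic mouse tongue data that lie outside the cartilage fibril. They were all gene symbols made of Col, a number, the letter a and a number, 42 in all, less the 6 chains of the cartilage fibril (Col2a1, Col9a1, Col9a2, Col9a3, Col11a1 and Col11a2). Of the 36 genes, 27 were measured, meaning that they reached 1 FPKM in either library with a good status in the files, out of 12383 measured genes among 22072 symbols. FPKM is the number of sequenced fragments scaled for transcript length and for library depth. The genes were grouped into 8 fibrillar, 9 basement membrane, 6 FACIT, 6 microfibrillar and 4 transmembrane collagens. The remaining 3, Col8a1, Col8a2 and Col10a1, form short-chain networks and were kept as a group of their own. Col6a3, Col21a1 and Col26a1 were not analysed here.

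Tongues were taken at embryonic day 12 from mice of mixed background, and RNA was pooled from 3 pairs of control and mutant samples. The control library carried 1 floxed copy of Osr1 and a wild-type copy (Osr1f/+), with no Cre named in its label. The mutant library carried the floxed copy over a null copy together with Wnt1cre (Osr1f/-; Wnt1cre), a Cre driver of the neural crest lineage. Muscle and epithelium of the tongue arise outside that lineage, so their cells kept the floxed copy but had the null copy. There was 1 library for each genotype, so no difference between genotypes could be tested, and every ratio below compares 2 libraries. Osr1 itself had 56.8 FPKM in control RNA and 18.4 FPKM in mutant RNA, lower in the library labelled mutant. Which exons the Cre removes is not given in the labels. Estimated depth was about 18900000 and 23100000 mapped reads. Muscle and epithelial genes were present in both, with Myod1 at 46.9 and 43.9 FPKM and Krt5 at 29.7 and 23.6 FPKM.

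Fibrillar collagens I, III and V are the main fibres of loose connective tissue, which in the tongue is made largely by neural crest cells. Network-forming collagen IV lies in the basement membranes under epithelium and around muscle fibres and vessels. FACIT collagens coat the surface of fibrils, collagen VI forms beaded filaments around cells, and transmembrane collagens sit in the cell membrane with their helices outside. The cartilage fibril uses collagens II, IX and XI in place of most of these.

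Sequences are shown for the genes with the largest differences and for a gene pair that starts from the same place. All are from RefSeq on GRCm38.p6. The 250 bases before Col8a2 (chr4:126286544-126286793, plus strand) and Col8a1 (chr16:57754738-57754987, minus strand) come first. This pair of chains had the highest log2 ratios of FPKM plus 1, mutant over control, among the 27 measured collagens. The 250 bases before Col23a1 (chr11:51289670-51289919, plus strand) belong to the gene with the lowest of the 27. Each runs along the strand of its gene and ends at the base before the annotated start. Capitals mark GC boxes, the letters GGGCGG on either strand, and runs of capitals longer than 6 letters are overlapping matches.
Col8a2: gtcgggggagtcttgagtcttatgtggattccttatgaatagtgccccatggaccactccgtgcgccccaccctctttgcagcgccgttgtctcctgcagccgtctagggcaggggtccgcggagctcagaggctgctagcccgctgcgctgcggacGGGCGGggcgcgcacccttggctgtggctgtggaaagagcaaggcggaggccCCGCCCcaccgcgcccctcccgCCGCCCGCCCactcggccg
Col8a1: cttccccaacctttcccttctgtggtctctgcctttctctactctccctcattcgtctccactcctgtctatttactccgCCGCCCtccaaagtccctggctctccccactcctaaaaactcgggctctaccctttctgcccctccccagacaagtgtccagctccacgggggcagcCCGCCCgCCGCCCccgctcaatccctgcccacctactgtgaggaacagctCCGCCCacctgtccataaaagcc
Col23a1: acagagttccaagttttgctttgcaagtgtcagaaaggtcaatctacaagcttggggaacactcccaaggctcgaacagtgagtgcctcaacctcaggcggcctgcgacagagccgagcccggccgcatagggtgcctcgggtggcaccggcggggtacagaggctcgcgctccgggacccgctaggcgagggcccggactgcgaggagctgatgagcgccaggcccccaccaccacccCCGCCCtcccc

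Windows for Col8a2 and Col8a1 held 4 GC boxes each and that of Col23a1 held 1. A GC box stood in 32.7% of the 32851 RefSeq promoter windows of this length and in 19 of the 32 windows that matched 30 of the 36 genes. None of these 3 windows held a CCAAT box (CCAAT, in 33.8% of all windows) or a TATA box (TATAAA, 12.4%). The SOX core ACAAAG (16.5% of all windows) and its variant AACAAT (9.42%) were not in them either. The odd-skipped motif ACAGTAGC, in 0.749% of all windows, was in 0 of the 32 windows. All motifs were searched on both strands, and none was longer than 8 letters.

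The genes Col4a1 and Col4a2 are read away from each other, and their annotated starts overlap. The 30 bases around them (chr8:11312801-11312830, plus strand) are shown with the 22 bases shared by both transcripts in capitals.
Col4a1 and Col4a2: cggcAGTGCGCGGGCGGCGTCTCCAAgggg

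As a group the 36 genes were close to equal in the libraries. Summed over the 36 genes there were 1225 FPKM in control RNA and 1208 FPKM in mutant RNA, a ratio of 0.987. The ratio of their summed reads was 0.981, with 95% counting bounds of 0.974 and 0.989. Of the 27 measured genes, 2 were at least 1.2-fold higher in the mutant library and 3 were at least 1.2-fold lower, on the scale of FPKM plus 1. Among all measured genes, 4.77% were higher and 3.46% lower by that fold. At 1.5-fold there was 1 higher gene, Col8a2, and 1 lower gene, Col23a1, where 0.896% and 0.581% of all measured genes lay. The median log2 ratio, always with 1 added to each FPKM and with the mutant library over the control, was −0.03 over the 27 genes and 0.0035 over all measured genes. A count of genes whose counting interval did not include 1 gave 6 above and 10 below, beside 10.7% and 10.2% of all measured genes. That interval narrows with the number of reads, and fibrillar and collagen IV transcripts are long and abundant, so this share was not read as a property of collagens. Counting intervals hold no variation between embryos.

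**Figure D1:**
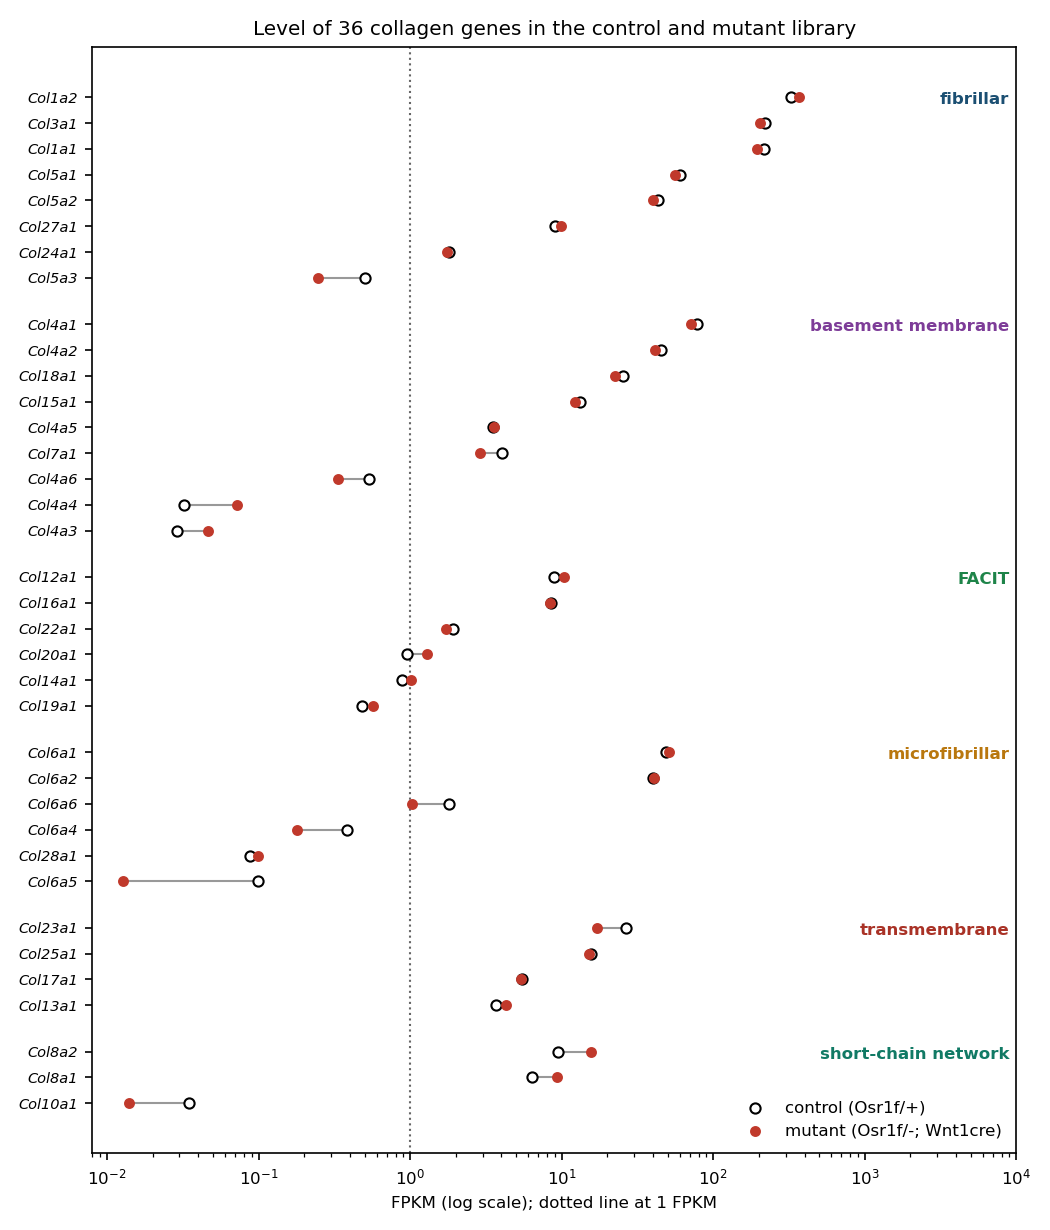
FPKM (log axis) of all 36 collagen genes in the control library (open circles) and the mutant library (filled circles), by type and by level within a type, with a dotted line at 1 FPKM. Levels ran from 0.0127 FPKM for Col6a5 in the mutant library to 367 FPKM for Col1a2 in the mutant library, and most pairs of points lie close together.

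**Figure D2:**
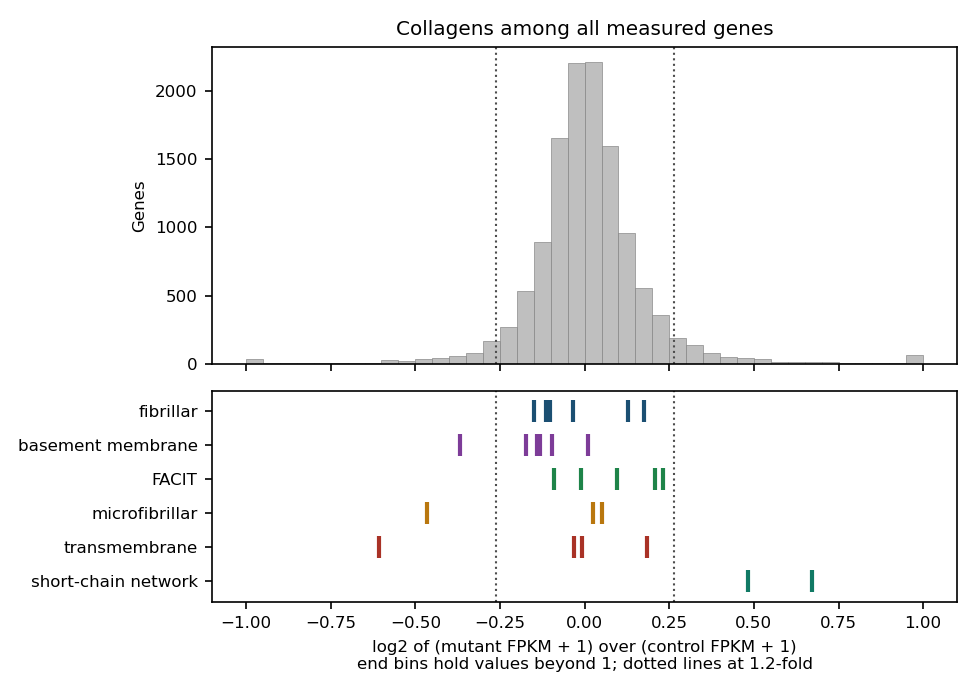
Upper panel, number of measured genes by log2 ratio (mutant over control, 1 added to each FPKM); lower panel, the 27 measured collagens by type, 1 tick per gene, with dotted lines at 1.2-fold. The ticks of 22 collagens lie between the lines, Col8a1 and Col8a2 lie to the right, and Col7a1, Col6a6 and Col23a1 lie to the left.

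Fibrillar collagens held 71.4% of the summed collagen FPKM in control RNA and 72.2% in the mutant library. Their sum was 875 and 872 FPKM, a ratio of 0.997 (from reads 0.994, 0.985 to 1.003), yet the chains did not share a direction. The chains of collagen I, the main fibre protein of connective tissue, lay on opposite sides of 1. Col1a2 (mm9 chromosome 6, 4455697 to 4491543) had 325 FPKM in control RNA and 367 FPKM in mutant RNA (ratio 1.13, 1.11 to 1.15). Col1a1 (chromosome 11, 94797584 to 94813170) had 216 FPKM in control RNA and 195 FPKM in mutant RNA (ratio 0.901, 0.883 to 0.919). Both rested on at least 19170 reads in each library, so the counting intervals were narrow and did not meet. FPKM is scaled by transcript length and library depth, and no other difference between transcripts was corrected for here. FPKM of 1 gene over another, here and below, was therefore not read as a ratio of chains made. The FPKM of Col1a2 was 1.5 times that of Col1a1 in control RNA and 1.89 times in mutant RNA.

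Col3a1, the chain of collagen III, which mixes with collagen I in soft tissue, had 219 and 202 FPKM, a ratio of 0.924 (0.907 to 0.940). Col5a1 and Col5a2 encode collagen V, which sets the thickness of collagen I fibrils. Col5a1 had 59.9 and 55.7 FPKM (ratio 0.930, 0.905 to 0.956). Col5a2 had 42.9 and 39.8 FPKM (ratio 0.927, 0.894 to 0.962). These 3 genes and Col1a1 had ratios between 0.901 and 0.930, all short of the 1.2-fold mark. Col5a2 and Col3a1 are neighbours on chromosome 1, with 24.6 kb between them. The level of Col5a1 was 1.4 times that of Col5a2 in both libraries.

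Col27a1, a fibrillar collagen found in developing cartilage and epithelia, had 8.98 and 9.92 FPKM, a ratio of 1.1 (1.03 to 1.19). A microRNA gene, Mir455, overlaps its model. Col24a1, described in developing bone and cornea, had 1.81 and 1.74 FPKM, with an interval that included 1 (0.810 to 1.15). Col5a3, a less common chain of collagen V, was below the threshold at 0.506 and 0.245 FPKM, from about 58 and 34 reads (ratio 0.484, 0.304 to 0.743). Of 8 fibroblast genes listed for the same tissue, 2 were at least 1.2-fold lower (Dcn and Postn) and none was higher by that fold, and their sum was 429 FPKM in control RNA and 408 FPKM in mutant RNA. Whether this moved with the fibrillar collagens was not tested. In bulk tissue, fewer cells of a type and less RNA per cell cannot be told apart.

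**Figure D3:**
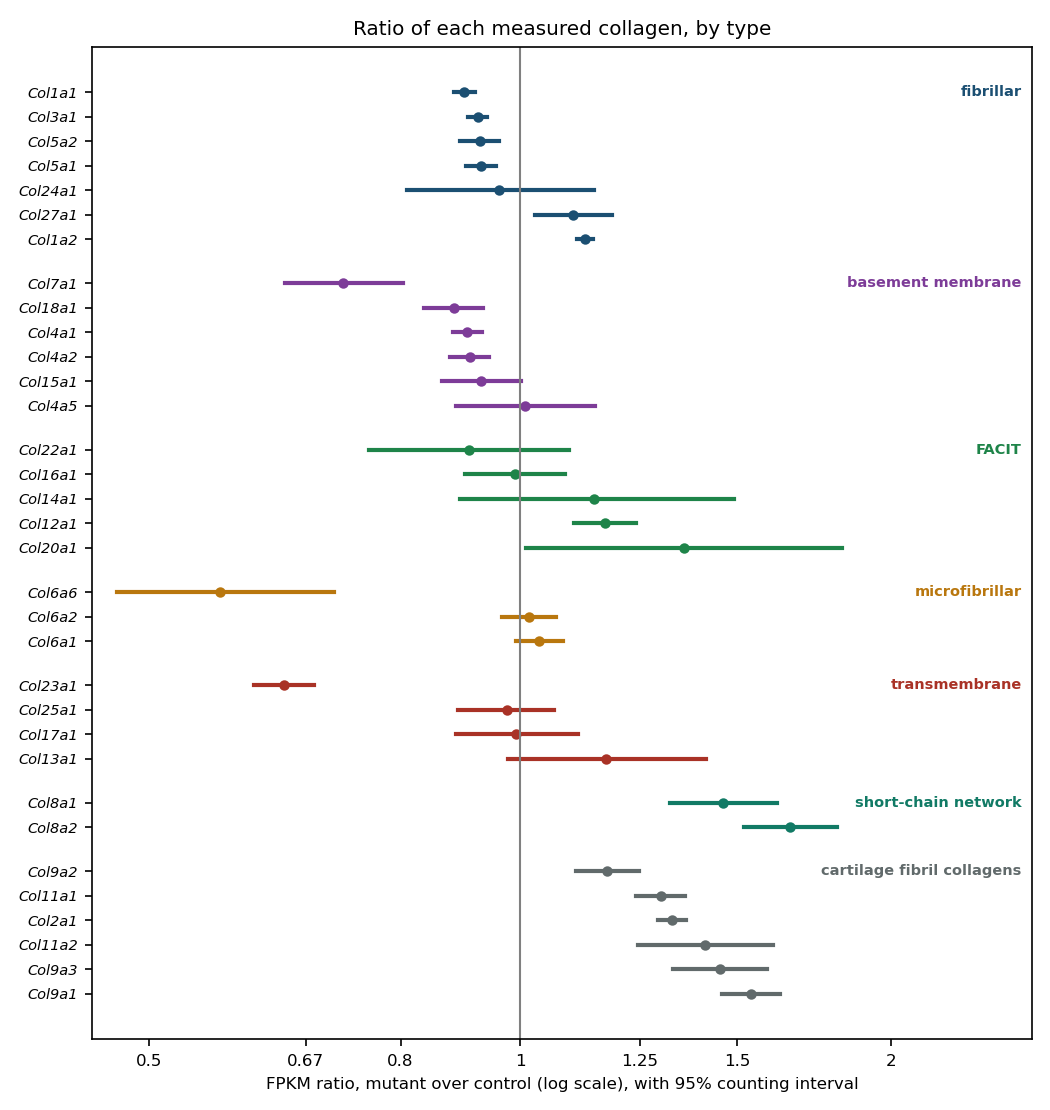
Ratio of mutant over control FPKM (log axis) of each measured collagen, by type, with lines for the 95% counting interval from estimated reads; the 6 cartilage fibril collagens are at the bottom for comparison. Col8a1 and Col8a2 lie in the range of the cartilage fibril collagens or above it, while the fibrillar and basement membrane collagens lie close to 1, except Col7a1 at 0.719.

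The summed level of basement membrane collagens was slightly lower in the mutant library. It went from 170.4 FPKM in control RNA to 153.9 FPKM in mutant RNA (ratio 0.903, 0.884 to 0.919 from reads). Of the 6 measured genes, 5 had a ratio below 1, beside 48.8% of all measured genes. The intervals of Col15a1 and Col4a5 included 1. Only Col7a1 among the 6 genes was past 1.2-fold. Col7a1 (chromosome 9, 108855790 to 108886920) encodes the anchoring fibrils that fasten stratified epithelium to the tissue below. It had 4.02 FPKM in control RNA and 2.89 FPKM in mutant RNA (about 698 and 615 reads; ratio 0.719, 0.644 to 0.803). The microRNA gene Mir711 overlaps its model. Of 8 measured epithelial markers, 1, Krt5, was at least 1.2-fold lower (ratio 0.796) and 7 were within that fold, and the list summed to 126.7 and 111.7 FPKM. The part of epithelial content in the Col7a1 value was not tested. Col17a1, a transmembrane collagen of the hemidesmosomes of the same epithelium, had 5.45 and 5.41 FPKM, a ratio of 0.993 (0.887 to 1.11).

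Col4a1 and Col4a2 encode the common collagen IV network of nearly all basement membranes, and their ratios were alike. Col4a1 had 78.5 FPKM in control RNA and 71.1 FPKM in mutant RNA (ratio 0.906, 0.882 to 0.931). Col4a2 had 45.2 and 41.1 FPKM, a ratio of 0.910 (0.877 to 0.944). The level of Col4a1 stood at 1.74 times that of Col4a2 in control RNA and 1.73 times in mutant RNA. On mm9 their models lie 2 bases apart, whereas on GRCm38.p6 the annotated starts overlap, as in the sequence printed above. Endothelial markers, another source of basement membrane, summed to 76.7 and 79.9 FPKM. Of the 8, 1 was past 1.2-fold, Pecam1, which was higher.

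Col18a1, whose end fragment is endostatin, had 25.5 and 22.5 FPKM (ratio 0.883, 0.836 to 0.934). Of its 2 RefSeq transcripts, the one of 5044 nt held 98.3% of the FPKM in control RNA and 98.2% in the mutant library. Col15a1, its relative in muscle and vessel basement membranes, had 13.2 and 12.3 FPKM (ratio 0.930, 0.864 to 1.002). Col4a5 had 3.52 and 3.55 FPKM, a ratio of 1.01 (0.888 to 1.15). Its neighbour on the X chromosome, Col4a6, lies 1.34 kb away and was below the threshold, with 0.531 and 0.335 FPKM (ratio 0.630, 0.423 to 0.908). Both are chains of basement membranes of smooth muscle and some epithelia. Col4a3 and Col4a4, chains known from the kidney glomerulus, had at most 0.0723 FPKM in either library, and their intervals included 1.

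FACIT collagens summed to 21.5 FPKM in control RNA and 23.3 FPKM in mutant RNA (ratio 1.09, from reads 1.11, 1.06 to 1.16). None of the 5 measured genes was past 1.2-fold on the scale of FPKM plus 1. Col12a1, which binds collagen I fibrils in tendon and fascia, had 8.82 and 10.3 FPKM (ratio 1.17, 1.11 to 1.24). Col14a1, its close relative in similar tissue, had 0.883 and 1.01 FPKM with an interval that included 1 (0.894 to 1.49). Col20a1 had 0.956 and 1.3 FPKM, a ratio of 1.36 (1.01 to 1.82) from about 76 and 126 reads. Col14a1 and Col20a1 passed the threshold only through the mutant library, so their direction was fixed by it. Col16a1, found at the junction of epidermis and dermis, had 8.44 and 8.36 FPKM (ratio 0.991, 0.903 to 1.09). Col22a1, which marks tissue junctions such as that of muscle and tendon, had 1.91 and 1.73 FPKM (ratio 0.908, 0.755 to 1.1). Col19a1, known from muscle in the mouse, was below the threshold at 0.479 and 0.572 FPKM. It lies 4.94 kb from Col9a1, a cartilage fibril gene with a ratio of 1.54. Tendon markers summed to 72.8 FPKM in control RNA and 64.4 FPKM in mutant RNA, with 3 of 5 measured genes at least 1.2-fold higher and 1, Thbs4, lower. Their part in the FACIT values was not tested.

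Among microfibrillar collagens, Col6a1 and Col6a2, which encode common chains of collagen VI, were close to equal. Col6a1 had 48.9 FPKM in control RNA and 50.7 FPKM in mutant RNA (ratio 1.04, 0.992 to 1.08). Col6a2 had 39.7 and 40.4 FPKM (ratio 1.02, 0.967 to 1.07). They lie 85.4 kb apart on chromosome 10, and both counting intervals included 1. The sum of the type was 91.0 and 92.4 FPKM, a ratio of 1.02 (from reads 1.01, 0.974 to 1.04).

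Col6a6, Col6a5 and Col6a4, further chains of collagen VI, had lower values in the mutant library. Col6a3 was not analysed here. Col6a6 (chromosome 9, 105591747 to 105730415) had 1.8 FPKM in control RNA and 1.03 FPKM in mutant RNA, from about 239 and 169 reads. Its ratio was 0.571 (0.471 to 0.706), and it was past 1.2-fold on the scale of FPKM plus 1. Its neighbours Col6a5 and Col6a4 follow within 28.0 and 29.7 kb on chromosome 9, and both were below the threshold. Col6a4 had 0.380 and 0.179 FPKM, a ratio of 0.472 (0.296 to 0.758). Col6a5 had 0.0985 and 0.0127 FPKM, from about 17 and 3 reads, so its ratio of 0.129 (0.027 to 0.498) rested on a handful of reads. In mice these 3 genes encode chains like alpha 3 of collagen VI, and they lie side by side. Since Col6a5 and Col6a4 were below the threshold, the 3 genes were not read for a shared direction. Of the transcripts of Col6a6, the one of 7098 nt held 97.9% of the FPKM in control RNA and almost all in the mutant library. Col28a1, a relative of collagen VI described around Schwann cells, had 0.0877 and 0.0986 FPKM, with about 7 and 10 reads. Schwann lineage markers summed to 47.9 and 40.8 FPKM, and their part in these values was not tested.

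The transmembrane type held Col23a1, which had the lowest log2 ratio of FPKM plus 1 among the 27 measured genes. Col23a1 (chromosome 11, 51103422 to 51397427) encodes a membrane collagen whose outer part can be shed. It had 26.6 FPKM in control RNA and 17.1 FPKM in mutant RNA (about 2848 and 2245 reads; ratio 0.644, 0.609 to 0.680). Of all measured genes, 0.533% had a lower log2 ratio. In level it exceeded the other 3 transmembrane collagens in both libraries. Those 3 were not past 1.2-fold. Col25a1, made by muscle and needed in mice for motor nerves to enter it, had 15.6 and 15.2 FPKM (ratio 0.976, 0.891 to 1.07). The longer of its 2 transcripts, of 3254 nt, held 72.7% of its FPKM in control RNA and 71.3% in the mutant library. Col13a1, a collagen of the nerve to muscle synapse, had 3.66 and 4.29 FPKM (ratio 1.17, 0.978 to 1.42). Col17a1 was given above. The sum of the type was 51.3 and 42.1 FPKM, a ratio of 0.820 (from reads 0.777, 0.745 to 0.810), and without Col23a1 the sums were 24.7 and 24.9 FPKM. Neuronal markers summed to 46.9 and 39.8 FPKM (ratio 0.849), with 4 of 8 at least 1.2-fold lower and 1 higher. Of the lower genes, Snap25 and Elavl4 were measured only through the control library, so their direction was fixed by it. The summed reads of the neuronal markers lay on the other side of 1, with a ratio of 1.053 (1.003 to 1.106), so the list had no single direction. Muscle markers summed to 666 and 684 FPKM, with 0 of 8 past that fold. Whether these lists moved with Col23a1 was not tested.

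Collagen VIII, a short-chain collagen that builds hexagonal lattices in the cornea and in vessel walls, was higher in the mutant library in both of its chains. Col8a2 (chromosome 4, 125964038 to 125991574) had 9.43 FPKM in control RNA and 15.6 FPKM in mutant RNA (about 770 and 1561 reads; ratio 1.65, 1.52 to 1.81). Col8a1 (chromosome 16, 57624369 to 57754850) had 6.33 FPKM in control RNA and 9.25 FPKM in mutant RNA (about 610 and 1092 reads; ratio 1.46, 1.32 to 1.62). They were the only 2 measured members past 1.2-fold on the higher side, and 99.3% and 98.7% of all measured genes had a lower log2 ratio. These genes lie on different chromosomes and encode the partner chains of 1 collagen. The level of Col8a2 stood at 1.49 times that of Col8a1 in control RNA and 1.69 times in mutant RNA. Neither gene model overlaps another. Endothelial markers, given above, were near equal in sum, whereas cartilage markers summed to 30.6 and 49.3 FPKM, with 6 of 7 measured at least 1.2-fold higher. Of these, Acan and Matn1 were measured only through the mutant library. The part of cartilage content in the Col8a1 and Col8a2 values was not tested.

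Col10a1, the collagen of hypertrophic cartilage, had 0.0345 and 0.0140 FPKM, from about 2 and 1 reads. Both values were under the 3 reads taken as the floor, which for its length is 0.0508 FPKM in the control, so no ratio was drawn. Ihh, a signal of the same stage of cartilage, was also low at 0.0999 and 0.116 FPKM, and no gene of any marker list was at 0 in either library. Of 3 measured genes listed for bone and hypertrophic cartilage, 1, the regulator Runx2, was at least 1.2-fold higher, with 1.79 and 3.83 FPKM. The model of Runx2 overlaps that of Supt3h. The other measured genes, Sp7 and Alpl, had ratios of 0.956 and 0.803, with intervals that included 1. The median log2 ratio of the 3 measured genes was −0.049. Below the threshold, Ibsp had a ratio of 0.463 (0.224 to 0.884). Also below it, Bglap was lower by value and Spp1 and Ihh were higher, with intervals that included 1.

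For comparison, the 6 cartilage fibril genes had ratios from 1.18 for Col9a2 to 1.54 for Col9a1. All 6 intervals lay above 1, and 5 of 6 were at least 1.2-fold higher, beside 10.7% and 4.77% of all measured genes. The sum of the 6 genes was 204.3 and 272.9 FPKM, a ratio of 1.34, against 0.987 for the sum of the 36 genes. With 1 library for each genotype this contrast could not be tested. Among the 27 measured genes outside the fibril, Col8a1 and Col8a2 were past 1.2-fold on the higher side. The 9 genes below the threshold were not read for direction as a group. Their levels ran from 0.0288 to 0.531 FPKM in control RNA and from 0.0127 to 0.572 FPKM in mutant RNA. By value, 5 of the 9 genes were lower and 4 higher in the mutant library. Of the counting intervals, 4 lay below 1 and 5 included 1. Ratios were printed above only for the 4 genes with an interval below 1. The 4 higher genes had ratios of 2.23 (Col4a4), 1.62 (Col4a3), 1.19 (Col19a1) and 1.12 (Col28a1).

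Collagen chains depend on enzymes and chaperones before they leave the cell, on proteinases and cross-linking enzymes outside it, and on receptors. Of 48 genes listed for these steps, 43 were measured. In the mutant library 3 were at least 1.2-fold higher and 3 lower, beside 4.77% and 3.46% of all measured genes. The other 37 of the 43 lay within 1.2-fold. The median log2 ratio was 0.0011 over the 43 genes and 0.0035 over all measured genes. Among 13 genes of prolyl and lysyl hydroxylation, P4ha3, a chain of prolyl 4-hydroxylase, had 5.35 and 6.65 FPKM (ratio 1.24, 1.05 to 1.47). Leprel1, a prolyl 3-hydroxylase, had 10.2 and 8.05 FPKM (ratio 0.789, 0.687 to 0.904). The lysyl hydroxylase gene Plod2 and Crtap, a partner of prolyl 3-hydroxylase, had ratios of 0.913 and 0.924. Plod2 overlaps another gene model.

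Of 11 measured genes of glycosylation, folding and secretion, Creb3l1 was past 1.2-fold. It encodes a membrane-bound transcription factor that acts on collagen I genes in bone, and had 5.41 and 3.77 FPKM (ratio 0.697, 0.574 to 0.846). Serpinh1, the collagen chaperone HSP47, had 298 and 276 FPKM (ratio 0.927, 0.906 to 0.95). Fkbp14, a prolyl isomerase, and Creb3l2, a factor for collagen secretion, had ratios of 1.18 and 1.09. Bmp1, the proteinase that trims the end of fibrillar procollagens, had 52.2 and 63.0 FPKM (ratio 1.21, 1.17 to 1.26). It was the 1 of 7 measured genes of propeptide removal past 1.2-fold. Adamts2, which removes the other end, had a ratio of 1.06 (0.918 to 1.22), and Pcolce, the enhancer of Bmp1, had 1.03 (0.949 to 1.12).

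Of 4 measured cross-linking enzymes, 1 was past 1.2-fold. This was Lox, which had 13.3 and 10.6 FPKM (ratio 0.795, 0.723 to 0.873), while its relatives Loxl1 and Loxl2 had ratios of 1.18 (1.06 to 1.31) and 1.13 (1.07 to 1.2). Loxl3, which overlaps another model, had 1.0. Among 8 measured receptor genes, Itga11, a chain of an integrin that binds fibrillar collagen, had 4.6 and 7.21 FPKM (ratio 1.57, 1.4 to 1.77). It had the largest higher log2 ratio, 0.55, of the 43 genes. Ddr1 and Ddr2, receptor kinases for collagen, had ratios of 0.89 (0.836 to 0.951) and 0.965 (0.931 to 1.0015), and Mrc2, an uptake receptor, had 1.01.

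**Figure D4:**
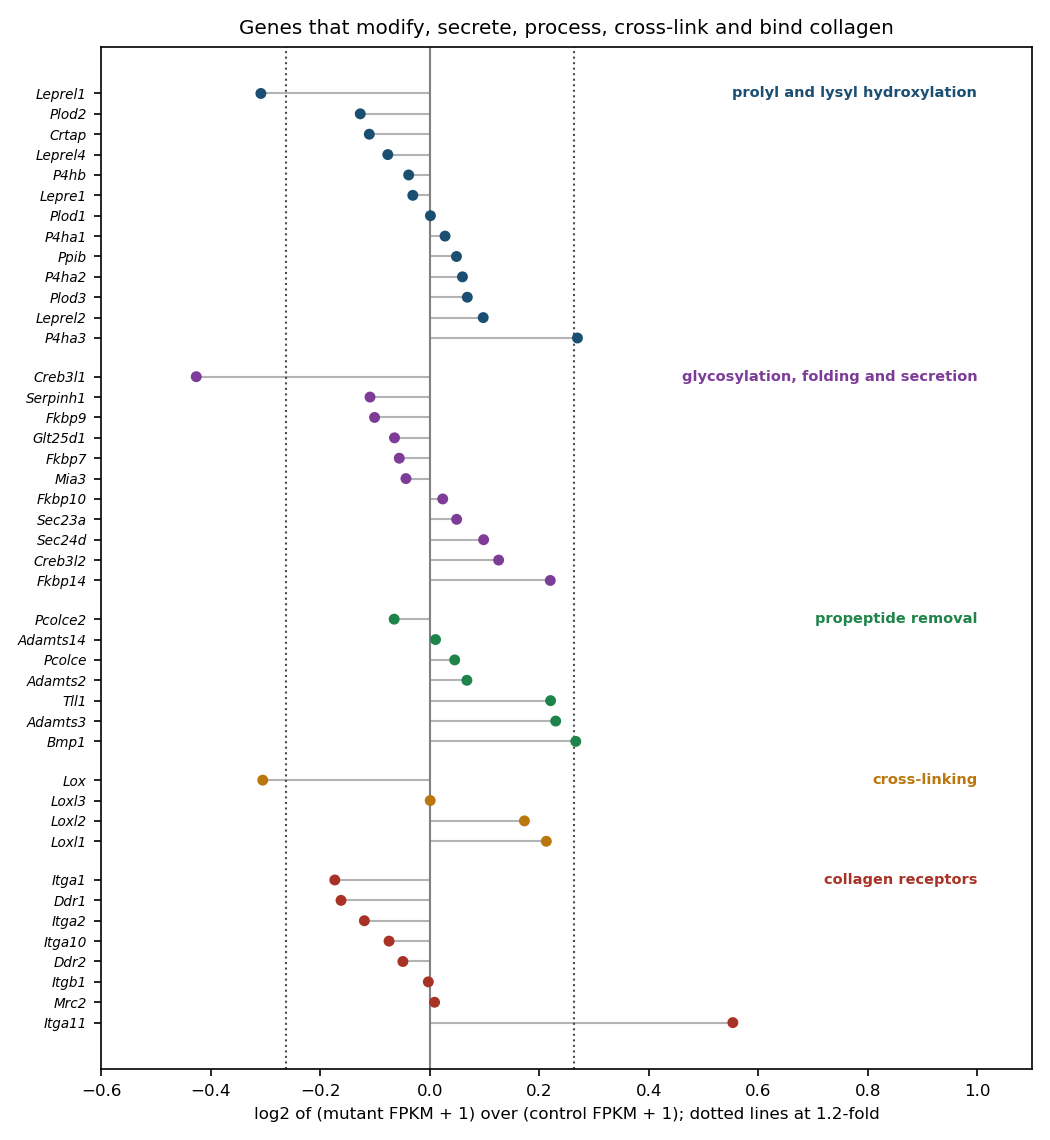
Log2 ratio (mutant over control, 1 added to each FPKM) of the 43 measured genes that act on collagen, by step, with dotted lines at 1.2-fold. Itga11, P4ha3 and Bmp1 lie to the right of the lines and Creb3l1, Leprel1 and Lox to the left.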

How the data were processed

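Tongue RNA of 1 control and 1 mutant library, amplified with NuGEN Ovation RNA-Seq v2 per the labels' protocols, was analysed. Tools named in the submitters' processing notes are TopHat 1.4.1 with Bowtie 0.12.7, on mm9. The quantifier's version and strand handling: not given in the sources used here. Per the file headers, the deposited FPKM and the deposited coverage (a signal not scaled for depth) are per RefSeq transcript. FPKM were summed per symbol. Log2 ratios used a pseudocount of 1. Reads were estimated as coverage times length over 47.4 bases, the value of 1 read, and gave exact conditional 95% intervals that cover counting error only. Read sharing among overlapping models is uncertain. A symbol was measured at 1 FPKM or more in either library with all rows OK. Coordinates are 1-based mm9; promoters are RefSeq GRCm38.p6. The interval formula was run on simulated reads that held counting error only, which checks the formula and not the read estimates. Python 3.11.15, pandas 2.3.3 and scipy 1.17.1 were used. The members and lists were chosen with earlier results of these data known. Named were all measured members and up to 4 genes of at least 5 FPKM per pathway list; other genes were named after their values were seen.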

Additional observations from a re-analysis of the deposited data

How the results depend on the processing

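No paired analysis was possible because there was 1 library for each genotype. The results were computed again under 10 alternatives: other pseudocounts, FPKM minimums, scalings, transcript choice, status and overlapping models. The count of collagens at least 1.2-fold lower, 3 as reported, was 1 with a pseudocount of 5 and 1 at a minimum of 5 FPKM, since Col7a1 and Col6a6 are low in level. The sum ratio of fibrillar collagens was 1.01 after quantile normalization in place of 0.997. With the fold set at 1.1 after the data were seen, 6 were higher and 6 lower, and at 1.5-fold 1 and 1. The count higher, 2 as reported, was 3 with a pseudocount of 0.1 and 3 on a TPM scale, and the count lower was 2 without genes whose models overlap others, which leaves out Col7a1, and 4 at a minimum of 0.1 FPKM. The summed ratios of basement membrane, FACIT, microfibrillar and transmembrane collagens stayed on their side of 1. The summed ratio of the short-chain network was not computed again. Of 260 single gene values, 254 moved by less than that error, 6 by more and 0 changed sign from a call. The median over the 27 genes ran from −0.04 to −0.01.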
